A study of Mus musculus with 6 samples.

Results

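The miR-34 and miR-449 microRNAs were examined in extracellular vesicles from mouse muscle. They were taken as the 4 mature miRNAs miR-34a-5p (MIMAT0000542), miR-34b-5p (MIMAT0000382), miR-34c-5p (MIMAT0000381) and miR-449a-5p (MIMAT0001542), plus the locus on the other arm of each hairpin, on the same chromosome and strand within 80 bases. This gave 8 loci of 2110 in the table, 2 for each of 4 hairpins. The rule itself uses no measured value. The members, and the lists of other miRNAs below, were however chosen with earlier results of these data known. Small RNA was sequenced from vesicles that the labels call exosomes, collected from muscle of young and of old mice, with 3 libraries in each group. The labels used here give neither ages in months nor sex, and name no treatment or altered allele. Nor do they tie replicates to different animals; p-values therefore measure the spread among these 6 libraries, and that spread may be technical.

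A microRNA hairpin can release a mature strand from each of its arms, called 5p and 3p, and bases 2 to 8 of the strand (the seed) pair with target messages. The miR-34 genes are direct transcriptional targets of the tumour suppressor p53, and miR-34a represses cell cycle and survival genes such as Bcl2 and the deacetylase gene Sirt1. miR-34b and miR-34c are made from a shared primary transcript, and with the miR-449 cluster they are best known in multiciliated epithelium and the male germ line. The table holds no measure of p53, so that a response to p53 was not tested here.

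The mature sequences are shown because they split the family into seed groups that do not follow the gene names. They are from RefSeq on GRCm38.p6 (the assembly also called mm10), 5′ to 3′, with the seed in capitals, and 7 of the 8 loci had an entry there. The first group below holds the strands with the miR-34 seed, among them miR-449c-5p from a neighbouring hairpin, and the second the other strands.
miR-34a-5p: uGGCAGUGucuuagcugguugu
miR-449a-5p: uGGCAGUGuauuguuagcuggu
miR-34b-5p: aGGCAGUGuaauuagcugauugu
miR-449c-5p: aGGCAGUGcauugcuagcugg
miR-34b-3p: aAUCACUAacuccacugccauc
miR-34c-3p: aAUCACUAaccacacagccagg
miR-34a-3p: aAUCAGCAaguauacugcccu
miR-449a-3p: cAGCUAACaugcgacugcucuc

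Of 1679 mature mouse miRNAs with an entry in that table, 4 carried the seed GGCAGUG, all of them printed above, and 2 carried AUCACUA, the 3p strands of miR-34b and miR-34c. Compared base by base from the 5′ end without gaps, miR-34a-5p and miR-449a-5p were identical at 15 of 22 positions and miR-34a-5p and miR-34b-5p at 11 of 22. miR-34b-3p and miR-34c-3p were identical at 17 of 22. An added base shifts all later positions in such a comparison, and miR-34b-5p has 23 bases against 22 in miR-34a-5p. These counts therefore do not rank how alike the strands are. In the mm10 annotation, Mir34a lies on chromosome 4, with miR-34a-5p at 150068473 to 150068494 on the plus strand, outside any other annotated gene. miR-34c-5p (chromosome 9, 51103076 to 51103098) and miR-34b-5p (51103610 to 51103632) lie on the minus strand, opposite an intron of Btg4. miR-449a-5p (chromosome 13, 113037549 to 113037570, plus strand) lies in an intron of Cdc20b on the same strand. None of the 8 loci overlapped another counted locus.

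The libraries held 904892 to 1706396 counts. Levels are given as CPM, counts per 1000000 counts of library size, with library sizes scaled by TMM, a method that balances libraries on most of their miRNAs, and so state each miRNA against the rest of its library. They do not tell more miRNA per vesicle from more vesicles of 1 cell type. Old replicate 1 was the shallowest library and stood apart. In a chi-square comparison of counts over loci, divided by its degrees of freedom, it gave 176 and 281 against the other old libraries. Those 2 gave 30.3 against each other, and pairs of young libraries 14.4 to 28.4. Fixed markers of skeletal and heart muscle were present, with 7 of 8 loci above 0 and a summed level of 50849 to 61142 CPM in young and 49519 to 90418 in old libraries. Across the table, edgeR's quasi-likelihood test called 12 loci higher and 3 lower in old among 347 tested.

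Vesicles from muscle carried miR-34a-5p at a level far above its relatives. It was the 13th to 19th most abundant locus in each library, held 0.718% to 1.41% of all counts, and had 10940 to 15346 counts. In young replicates 1, 2 and 3 it stood at 9345, 8511 and 7017 CPM, and in old replicates 1, 2 and 3 at 12883, 10989 and 10166 CPM. Every old library lay above every young one, with old replicate 1 the highest and young replicate 3 the lowest. It averaged 8291 ± 1179 CPM over the young libraries and 11346 ± 1393 over the old (SD, n = 3 each). The log2 fold change was 0.45 ± 0.17 (SE), or 1.37-fold with a 95% interval of 1.07 to 1.76. The difference did not pass edgeR's quasi-likelihood test over all loci (adjusted p = 0.139). Without old replicate 1 the log2 fold change was 0.37 (adjusted p = 0.0687), in a fit that called 12.5% of its tested loci, against 4.32% with all 6 libraries. Without young replicate 3 it was 0.34 (edgeR adjusted p = 0.371). Groups failed to overlap in this direction at 14.1% of all tested loci, and in either direction at 27.1%. The spread of miR-34a-5p within a group, 14.2% of the mean in young and 12.3% in old, exceeded the 0.867% that counting alone gives at its mean count.

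Fixed markers of cell types that vesicles could come from were compared in the same libraries. Of the 6 tested muscle loci, 4 rose by edgeR's test, where 3.46% of all tested loci were called higher. These 4 include Mir133a-1 and Mir133a-2, copies of the same mature miR-133a-3p. The summed muscle levels given above overlapped, with miR-206-3p the most abundant of the muscle loci. The 5 leukocyte loci summed to 1144 to 1346 CPM in young and 896 to 1009 in old libraries. Of these miR-155-5p fell, a call lost without old replicate 2, where 0 loci were called lower. miR-142a-5p, miR-223-3p and miR-150-5p had positive log2 fold changes of 0.79, 0.11 and 0.094 that did not pass the test. The remaining locus, miR-142a-3p, was at 0 and overlaps another locus in the table. Red blood cell loci overlapped between the groups, at 40575 to 42835 CPM in young and 41265 to 48359 in old, and none of the 3 passed the test. The summed levels of 2 lists were higher in every old than in every young library, as were 14.1% of all tested loci taken singly. The smooth muscle list, miR-143-3p and miR-145a-5p, went from 14391 to 16227 CPM in young to 24099 to 25464 in old. Nearly all of this sum was miR-143-3p, at 14038 to 25000 CPM over the 6 libraries, and its call is qualified below. miR-145a-5p had 353 to 629 CPM, with groups that overlapped (edgeR adjusted p = 0.187). The neural list, with 4 of 7 loci tested and none past the test, went from 109 to 124 CPM in young to 138 to 165 in old. Its tested loci were Mir124a-1, Mir124a-2 and Mir124a-3, copies of the same mature miR-124-3p, and miR-153-3p. The groups of miR-153-3p overlapped (log2 fold change 0.081, edgeR adjusted p = 0.893). The 3 loci of miR-9-5p on the neural list were at 0, and these overlap other loci in the table. The part of these lists in the miR-34a-5p value was not tested.

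The 2 strands of the miR-34b and miR-34c hairpins with the shared AUCACUA seed came next in level. Per base of the mature strand, the mean over 6 libraries was 446 CPM for miR-34a-5p, 24.2 for miR-34c-3p and 23.6 for miR-34b-3p. It was 4.31 for miR-449a-5p, 3.23 for miR-34c-5p and 2.24 for miR-34b-5p, and CPM without division by length gave the same order. miR-34a-5p lay 13.8 to 24.2 times above miR-34c-3p in CPM, library by library. The levels of miR-34c-3p and miR-34b-3p did not differ beyond their spread, with miR-34c-3p the higher of the pair in 2 of 6 libraries. All 6 libraries had miR-34b-3p above miR-449a-5p, by 3.55 to 8.24 times. The ranges of miR-449a-5p and miR-34c-5p overlapped, as did those of miR-34c-5p and miR-34b-5p.

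**Figure D1:**
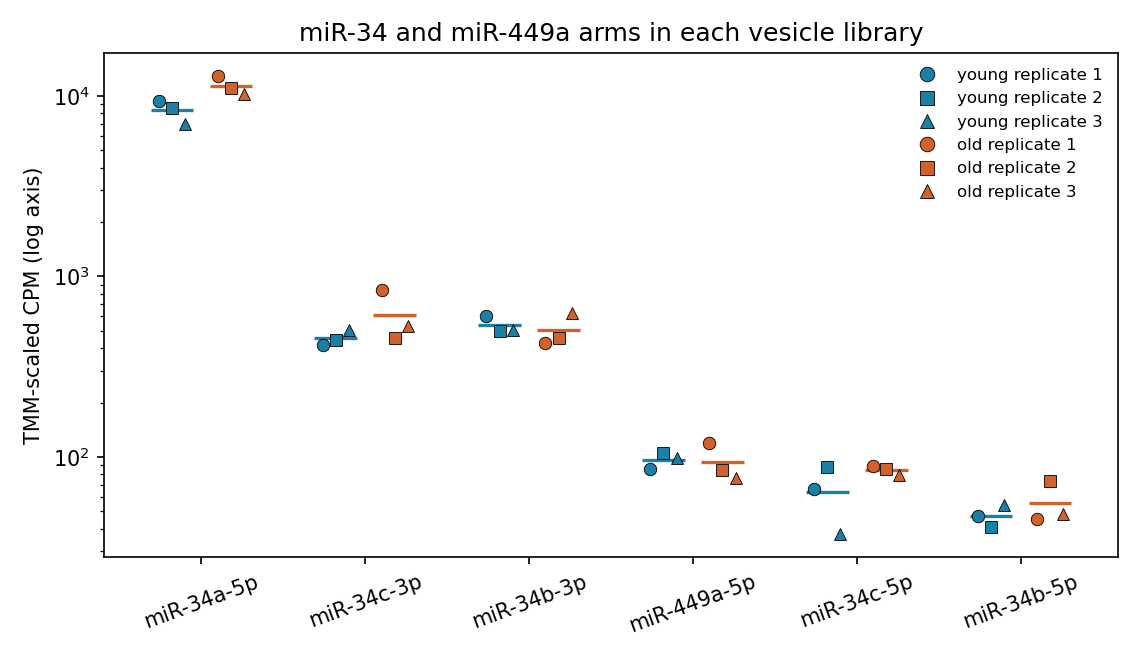
TMM-scaled CPM (log axis) of the 6 loci that passed the filter on low counts, for each of 3 young and 3 old libraries, with a line at each group mean. miR-34a-5p lies between 7017 and 12883 CPM and is the only locus of the 6 whose groups do not overlap.

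Among the strands with the miR-34 seed, with miR-34c-5p counted among them as a family member, miR-34a-5p supplied 97.3% to 98.1% of the counts in each library. These strands together took 0.948%, 0.852% and 0.738% of all counts in young replicates 1, 2 and 3 and 1.44%, 1.11% and 0.965% in old replicates 1, 2 and 3. The 3p strands of miR-34b and miR-34c took 0.0893% to 0.139%, with the highest value in old replicate 1.

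Counts of the 4 hairpins fell on opposite arms, and the cause was not tested. miR-34a and miR-449a were counted on the 5p arm, while miR-34b and miR-34c were counted mostly on the 3p arm. miR-34a-3p had 1 count in young replicate 2, 1 in old replicate 3 and 0 in the other libraries, and the 3 counts that a count of 0 allows correspond to 1.92 to 3.02 CPM in those 4. miR-449a-3p was at 0 in every library. Young replicate 2, with the most counts of this hairpin, had 0 of 174 on that arm, which allows a share of up to 1.72%. Old replicate 3, with the fewest, had 0 of 98, which allows up to 3.06%. Intervals and limits cover counting error only, since reads without molecular identifiers are not independent molecules.

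For miR-34b, the 5p arm held 7.25%, 7.58% and 9.63% of the counts of both arms in young replicates 1, 2 and 3, and 9.62%, 14.0% and 7.13% in old replicates 1, 2 and 3. The highest share, in old replicate 2, had an exact binomial interval of 11.6% to 16.7%, above the value of every other library. For miR-34c, the 5p arm held 13.7%, 16.6% and 6.84% in young and 9.50%, 15.9% and 12.9% in old replicates 1, 2 and 3. Young replicate 3 was the lowest there (interval 5.23% to 8.75%), and the groups overlapped for both hairpins. The mean shares were 8.15% ± 1.29 in young and 10.2% ± 3.48 in old for miR-34b (exact permutation test, two-sided, p = 0.7), and 12.4% ± 4.99 and 12.8% ± 3.22 for miR-34c (exact permutation p = 1.0; SD, n = 3 each). For miR-34b the difference between the means, 2.09 percentage points, shrank to 0.216 with old replicate 2 left out and widened to 3.65 with old replicate 3 left out. With 3 libraries against 3 this test cannot go below 0.1, and over the 6 shares and ratios tested here all adjusted p-values were 1.0. These 6 include the share of miR-449a, which was 100% in every library, so that its test could find no difference. They also include the share of miR-34a, with 2 counts of miR-34a-3p in all. Of 212 hairpins with both arms in the table and at least 10 counts on both arms together in every library, 75 had the 3p arm above the 5p arm in all 6 libraries, 128 had the reverse, and 9 varied.

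**Figure D2:**
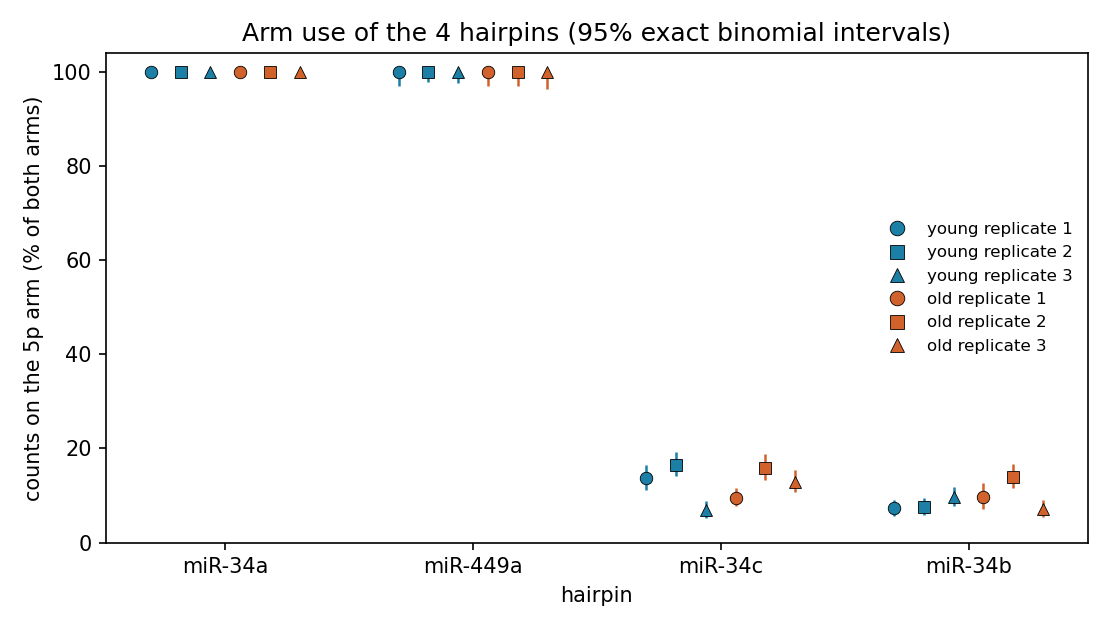
Counts on the 5p arm as a percentage of both arms (vertical axis) for the 4 hairpins (horizontal axis), 1 point per library with its 95% exact binomial interval. miR-34a and miR-449a sit at or near 100%, miR-34b between 7.13% and 14.0% and miR-34c between 6.84% and 16.6%.

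The 3p strands of miR-34b and miR-34c, which share a primary transcript, were compared between ages next. miR-34b-3p had 600, 499 and 505 CPM in young replicates 1, 2 and 3 and 427, 453 and 627 CPM in old replicates 1, 2 and 3, so that the groups overlapped and the highest and lowest values were both in old libraries. Its log2 fold change was -0.09 ± 0.19 (SE), with a 95% interval of -0.49 to 0.31 (edgeR adjusted p = 0.851). miR-34c-3p had 418, 443 and 507 CPM in young and 845, 453 and 533 CPM in old replicates 1, 2 and 3. Old replicate 1 stood well above the other 5 libraries, which lay between 418 and 533 CPM. The log2 fold change of miR-34c-3p was 0.42 ± 0.21 (SE), with an interval of -0.03 to 0.87 (edgeR adjusted p = 0.267), and 0.13 without old replicate 1 (adjusted p = 0.646).

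The balance between these 2 strands differed in that same library. miR-34b-3p made up 58.9% and 49.9% of their joint counts in young replicates 1 and 3, and 829 of 1565 counts in young replicate 2. In old replicate 2 both strands had 633 counts, and in old replicate 3 miR-34b-3p made up 54.1%. In old replicate 1 it made up 33.5% (exact binomial interval 30.9% to 36.2%), from 423 counts against 838 for miR-34c-3p. The log2 ratio of miR-34b-3p to miR-34c-3p averaged 0.23 ± 0.27 over the young and -0.25 ± 0.65 over the old libraries (SD, n = 3 each; exact permutation p = 0.5, two-sided). Without old replicate 1 the difference between the means was -0.11, against -0.48 with it.

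The 5p strands of this transcript were scarcer. miR-34c-5p had 66.2, 87.8 and 37.2 CPM in young and 88.7, 85.9 and 79.2 CPM in old replicates 1, 2 and 3. Young replicate 3, with 58 counts, was the lowest, and young replicate 2 lay within the old range. The log2 fold change was 0.41 ± 0.28 (SE), with an interval of -0.19 to 1.00 (edgeR adjusted p = 0.441). It was 0.12 without young replicate 3 and 0.72 without young replicate 2. miR-34b-5p had 46.9, 40.9 and 53.9 CPM in young and 45.4, 73.8 and 48.1 CPM in old replicates 1, 2 and 3. Only old replicate 2 lay outside the young range. Its log2 fold change was 0.25 ± 0.27 (SE), with an interval of -0.32 to 0.82 (edgeR adjusted p = 0.681), and -0.0098 without old replicate 2. With 45 to 103 counts per library, counting alone gives miR-34b-5p a spread of 11.8%.

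miR-449a-5p, the strand with the miR-34 seed from the Cdc20b intron, had 86.2, 105 and 98.1 CPM in young and 120, 84.5 and 76.1 CPM in old replicates 1, 2 and 3. The old libraries held both the highest and the 2 lowest values. Its log2 fold change was -0.05 ± 0.24 (SE), with an interval of -0.56 to 0.45 (edgeR adjusted p = 0.926). It was -0.24 without old replicate 1, the highest library. The other hairpins of its cluster were barely counted. miR-449c-5p had 5 counts in all libraries together and miR-449b-5p had 0. Of the 6 fixed epithelial loci, which include miR-200c-3p and miR-141-3p, each had between 5 and 53 counts in total. Their summed level was 15.6 to 17.2 CPM in young and 12.4 to 24.3 in old libraries, below that of miR-449a-5p in each library, and their part in the miR-34b, miR-34c and miR-449a values was not tested.

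Of the 8 loci, 6 passed the filter on low counts, and none of these rose or fell by edgeR's test with Benjamini-Hochberg adjustment, where 4.32% of all tested loci were called. At an unadjusted p under 0.05 there was 1, miR-34a-5p, where 22.5% of tested loci reached that level. DESeq2's Wald test also called 0 of 6, against 6.34% of all loci. Positive log2 fold changes were found at 4 of the 6, with a median of 0.33, against 182 of 347 (52.4%) and a median of 0.036 over all tested loci. Groups did not overlap at 1 of the 6, against 27.1% of all tested loci in either direction. The log2 ratio of miR-34a-5p to miR-34c-5p, the seed-sharing strands of the 2 transcription units, averaged 7.09 ± 0.48 over the young and 7.05 ± 0.10 over the old libraries (SD, n = 3 each; exact permutation p = 1.0, two-sided). Its values ranged from 6.59 to 7.55 in young libraries, which enclosed the old range of 6.99 to 7.17.

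Other miRNAs described as raised or processed more through p53 were listed beside the family, together with miR-449b-5p and miR-449c-5p. The 14 listed miRNAs had 15 loci in the table, of which 9 passed the filter, 1 rose, none fell and 8 did not pass edgeR's test, against 3.46% of all tested loci called higher. Of the 9, 7 had positive values, and the median log2 fold change was 0.28. The locus that rose was miR-143-3p, abundant in smooth muscle and fibroblasts and also on the smooth muscle list above, at 14954 ± 889 CPM over the young and 24356 ± 767 over the old libraries (log2 fold change 0.70 ± 0.16 SE, edgeR adjusted p = 0.0137). The call was lost without young replicate 1 (edgeR adjusted p = 0.156), young replicate 2 (0.115), young replicate 3 (0.0577) or old replicate 2 (0.0874), where the log2 fold change was 0.63, 0.71, 0.74 and 0.69. miR-145a-5p, from the same cluster as miR-143-3p, had 419 ± 69.1 and 561 ± 86.8 CPM (0.42 ± 0.19 SE, adjusted p = 0.187).

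miR-192-5p and miR-194-5p, which are abundant in liver and gut, are also induced by p53. miR-192-5p averaged 172 ± 9.70 CPM over the young and 183 ± 16.2 over the old libraries, or 0.085 ± 0.19 (SE) on the log2 scale (edgeR adjusted p = 0.854). miR-194-5p had log2 fold changes of 0.96 ± 0.38 at Mir194-1 and 0.72 ± 0.35 at Mir194-2 (SE, edgeR adjusted p = 0.145 and 0.244), 2 copies of the same mature miRNA. These were 0.41 and 0.19 without old replicate 1. Without old replicate 3, Mir194-1 passed (log2 fold change 1.06, edgeR adjusted p = 0.039) and Mir194-2 did not (0.88, edgeR adjusted p = 0.0731). With the copies summed over all libraries, miR-194-5p had 0.82 and did not pass (edgeR adjusted p = 0.147). miR-22-3p, abundant in striated muscle, had 27217 ± 1535 and 33038 ± 861 CPM with groups that did not overlap (0.28 ± 0.16 SE, edgeR adjusted p = 0.299). The log2 fold change was 0.082 for miR-15a-5p, and the 2 copies of miR-16-5p, whose processing p53 promotes, had -0.13 and -0.17 (edgeR adjusted p = 0.854, 0.731 and 0.637). miR-107-3p, miR-215-5p, miR-200c-3p and miR-141-3p had 38, 10, 24 and 5 counts in all libraries together and were not tested, and miR-605-5p had no locus of that name.

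**Figure D3:**
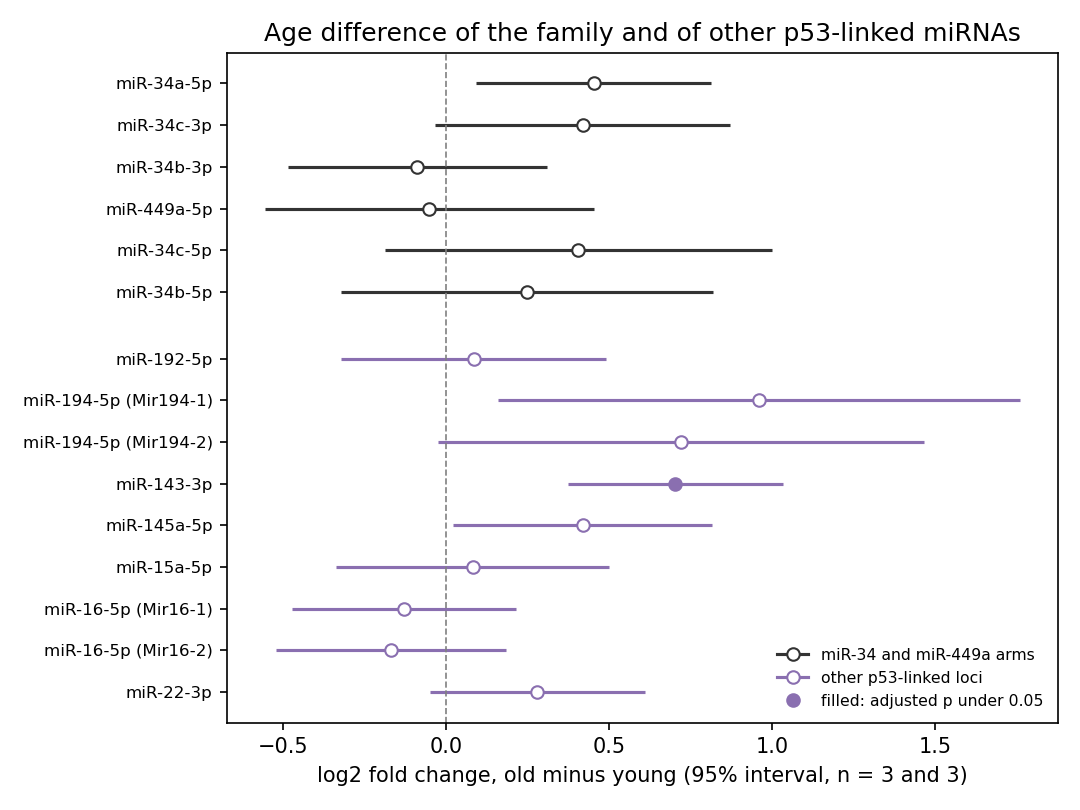
Log2 fold change of old minus young (horizontal axis) with its 95% interval from edgeR, for the 6 tested loci of the family and the 9 tested loci of the p53-linked list. miR-143-3p at 0.70 carries the filled symbol of an adjusted p under 0.05, and miR-34a-5p at 0.45 does not.

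The pattern of miR-34a-5p over the 6 libraries was most like that of miR-369-5p (Pearson's r = 0.94), miR-376a-3p (0.91), miR-27a-5p (0.91), miR-376c-3p (0.91) and miR-124-3p at Mir124a-3 (0.91; Spearman's rho 0.83 to 0.94 for the 5), of 341 tested loci outside the family. The measure was the correlation of log2 CPM with a prior count of 2, given as a description because the libraries share their 2 age groups and their scaling. Of these 5, the 3 on chromosome 12 belong to the imprinted Dlk1-Dio3 cluster. Their mean levels were low beside miR-34a-5p, from 12.8 CPM in young (miR-27a-5p) to 67.7 in old (miR-376c-3p). All 5 had positive log2 fold changes between 0.63 and 0.95, a direction that follows from choosing them for likeness to miR-34a-5p. None of the 5 passed edgeR's test (adjusted p from 0.112 to 0.278). Where a mature miRNA had several tested copies, only the copy most like miR-34a-5p was kept. The other copies of miR-124-3p, Mir124a-1 and Mir124a-2, had lower log2 fold changes of 0.36 and 0.48 (edgeR adjusted p = 0.556 and 0.458). Within the family, miR-34c-5p was the locus most like miR-34a-5p (r = 0.78), with 25 of the 341 other loci above it. miR-34c-3p had r = 0.59, miR-449a-5p 0.12, miR-34b-5p 0.11 and miR-34b-3p -0.35.

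**Figure D4:**
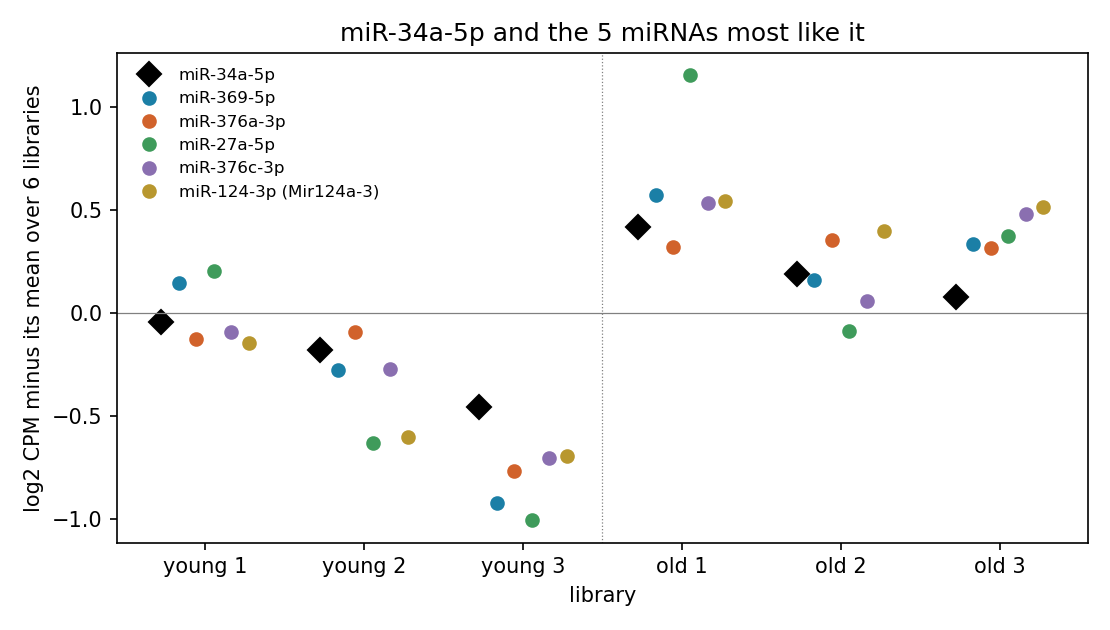
Log2 CPM minus its mean over the 6 libraries (vertical axis) in each library (horizontal axis) for miR-34a-5p (diamonds) and the 5 miRNAs with the highest Pearson correlation with it. The 3 old libraries of miR-34a-5p lie above its 3 young ones, and young replicate 3 is the lowest for every miRNA shown. The 5 were chosen for this likeness.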

How the data were processed

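The deposited values, 6 libraries, were raw read counts, 1 row for each mature miRNA locus. Per the submitters' processing notes reads were aligned with BWA to mm10, and per the file headers the authors counted them with featureCounts 2.0.6 over miRNA features, with no strand, multi-mapping or overlap option, so that reads of either strand count. No BWA version or adapter step was stated. Loci were named by exact position from RefSeq (1734) or by hairpin and arm from GENCODE M21, and miR-34c-5p by its identifier. Old was tested against young with edgeR 4.0.16 in R 4.3.3, using filterByExpr (minimum count 10, minimum total 15), TMM and the quasi-likelihood test. Benjamini-Hochberg adjustment covered all 347 tested loci (threshold 0.05). Shares and ratios (pseudocount 0.5) were compared by exact permutation tests. Alternatives were DESeq2 1.42.0, other scalings, no filter, summed copies, a replicate block and leaving out each library. The fit was tested on simulated data. miRNAs named are the family, the listed p53-linked and seed-sharing miRNAs, fixed cell type markers, miR-21a-5p and the 5 loci most like miR-34a-5p. Members and lists were chosen with earlier results of these data known.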

Additional observations from a re-analysis of the deposited data

How the results depend on the processing

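Each of the 6 tested strands was refitted under 13 alternatives, and none of these 78 values passed the threshold. The direction was the same in 73. Without 1 library, miR-449a-5p ranged from -0.24 to 0.059 (log2 fold change), miR-34b-5p from -0.0098 to 0.40, miR-34b-3p from -0.29 to 0.030, miR-34c-5p from 0.12 to 0.72 and miR-34c-3p from 0.13 to 0.59. miR-34a-5p stayed positive under every alternative, from 0.34 to 0.51, with adjusted p from 0.0687 to 0.371. Of 117 values of the p53-linked loci, 116 kept their direction, the exception being miR-15a-5p, at -0.020 without old replicate 2 and up to 0.20 without another library. The count of loci called was unstable. Higher calls went from 12 to 5 with the replicate block and to 5 to 25 without 1 library (25 without old replicate 1). Lower calls went from 3 to 5 with miR-21a-5p left out of the scaling, to 9 by DESeq2, to 5 without a filter, to 5 with copies summed, to 1 with the replicate block and to 0 to 20 without 1 library (20 without old replicate 1); the cause was not tested. Of the 15 calls 12 were higher; that share was 59.1% by DESeq2, 68.8% with copies summed, 83.3% with the replicate block and, without 1 library, from 55.6% (old replicate 1) to 100% (old replicate 2). Same-numbered libraries did not deviate together (r = -0.13, 0.02 and -0.15). With 3 libraries in each group, this cannot show whether the numbers pair them, and the labels do not say. With the replicate block, miR-34a-5p stood at 0.46 on the log2 scale (edgeR adjusted p = 0.249). miR-143-3p was not called with the block (log2 fold change 0.71, adjusted p = 0.0799). The old minus young 5p share of miR-34a was -0.000189 percentage points, 7.89e-05 with a pseudocount and -0.00255 to 0.00236 without 1 library, from 2 counts of miR-34a-3p in all. That of miR-34b went from 2.09 to between 0.216 and 3.65 without 1 library. That of miR-34c went from 0.439 to between -2.32 and 2.54 without 1 library, and the log2 ratio of miR-34a-5p to miR-34c-5p from -0.037 to between -0.29 and 0.19. Of the 5 miRNAs most like miR-34a-5p, 4 were again among the 5 with library totals alone and 5 with the other scalings, a check added after seeing the data. At the mean count of miR-34b-5p, the scarcest strand tested, counting alone gives a spread of 11.8%.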
